A study of Arabidopsis thaliana with 6 samples.

Results

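The genes described here are 3 kinase genes and 2 genes of the suberin pathway in auxin-treated root cells of Arabidopsis thaliana: GSO1 (AT4G20140), AT1G61590, AT5G65530, AT2G48130 and AT1G74460. They were taken by locus, each had 1 probe set, and together they are 5 of 22810 probe sets on the array. They were picked with their values on these same 6 arrays known, so their levels and differences are given as a description, with no test. The kinase genes had high signals before and after 2 h of auxin. Turned back from the log2(signal + 5) scale, their levels at 6 h were 9.59-fold to 24.1-fold lower than at 0 h. The 24.1-fold, for AT5G65530, leaned on 1 dim array: its log2 difference was -4.59, and -2.82 without replicate 2 at 6 h. The suberin genes had low signals throughout and differed by 2.41-fold or less on that scale. All 5 passed the filter on dim probe sets, whose limit was a mean of 5.8 on the log2(signal + 5) scale, equal to a signal of 50.9. Their means were 8.27 for GSO1, 8.27 for AT1G61590, 8.95 for AT5G65530, 6.44 for AT2G48130 and 5.85 for AT1G74460. AT1G74460 thus lay just inside the limit.

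The series follows xylem pole pericycle cells, the cells from which lateral roots start, through the first hours of lateral root initiation. Seedlings of the GAL4-GFP line J0121 were grown on 10 microM NPA, an inhibitor of auxin transport, and the marked cells were isolated from their roots by fluorescence-activated sorting. The 3 groups were 0 h (72 HAG, read here as hours after germination), 2 h on 10 microM NAA, a synthetic auxin (74 HAG), and 6 h on 10 microM NAA (78 HAG). Each group had 2 one-colour Affymetrix arrays, which the labels call biological replicates. All groups share the J0121 genotype and the growth on NPA. GFP in this line comes from an enhancer trap, so the sorted cells are those in which the trap is active. Arrays of seedlings kept without NAA to the later ages were not analysed here, so the time on NAA and the age of the seedlings cannot be told apart.

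As background, the Casparian strip is a ring of lignin in the walls of endodermal cells, the layer just outside the pericycle, that closes the space between cells to water and solutes. GSO1 encodes a receptor kinase, also called SCHENGEN3, that senses small sulfated peptides and reports gaps in the strip. AT1G61590 encodes SCHENGEN1, a cytoplasmic kinase that acts with this receptor at the plasma membrane. AT5G65530 encodes a receptor-like cytoplasmic kinase of a class that binds ROP GTPases. Suberin is a polyester of fatty acid derivatives and phenolics that coats older endodermal cells. AT2G48130 encodes a GPI-anchored lipid transfer protein, a family linked to the export of suberin and cutin monomers, and AT1G74460 encodes a GDSL-type esterase/lipase, a family that includes suberin-assembling enzymes. Except for GSO1, FACT and HCT, which the annotation names, the roles and common names of loci given here are background knowledge.

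The values are MAS5 signals on a linear scale, 1 per probe set, scaled by the authors to the same trimmed mean on each array. Array medians ran from 75.8 to 109.9. Hybridisation controls, foreign transcripts added before hybridisation, were brighter on 1 array of each time point (replicate 1 at 0 h and replicate 2 at 2 h and 6 h) than on the other, with geometric means of 4539 to 10419 against 1304 to 2078. Because that split crosses the time points, differences within the brighter and within the dimmer arrays are given beside the results. The ratio of 3' to 5' actin probe sets, a sign of RNA quality, with the older actin control amounted to 2.22 and 1.4 at 0 h, 2.98 and 1.37 after 2 h, and 4.48 and 3.84 after 6 h. With the second actin control on the same arrays it was 1.32 and 0.567, 0.979 and 0.625, and 0.555 and 0.573 at those times. Over all arrays the ubiquitin ratio ran from 5.99 to 10.7 with the older control and from 3.4 to 5.83 with the second. The GAPDH ratio ran from 2.68 to 5.78 and from 1.01 to 1.74, and with the older control it was 4.37 and 3.42 after 6 h. The part of RNA quality in the results below was not tested.

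The 3 kinase genes shared a time course with a high signal at 0 h and 2 h and a low one at 6 h. GSO1 read 601.1 and 828.6 at 0 h, 553.4 and 1212.5 after 2 h, and 75.6 and 26.1 after 6 h (replicates 1 and 2). Both 6 h arrays lay far below the other 4, while the arrays at 2 h and 0 h overlapped. In sorted cells, fewer cells of a type and less RNA per cell cannot be told apart. Its mean was 715.0 ± 161 at 0 h, 883 ± 466 after 2 h and 50.8 ± 35.0 after 6 h (SD, n = 2 each). The level was highest at 2 h and lowest at 6 h, but the levels at 2 h and 0 h do not differ beyond their spread. The 6 h signals were 10.6% and 3.65% of the 0 h mean. On the log2(signal + 5) scale the difference between 6 h and 0 h was -3.83 ± 0.50 (SE), a 14.2-fold lower level, and that between 6 h and 2 h was -4.04 ± 0.50. At 2 h against 0 h the difference was 0.21 ± 0.50, and it was 0.78 without replicate 1 at 2 h, -0.35 without replicate 2 at 2 h and -0.02 without replicate 1 at 0 h.

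AT1G61590, the cytoplasmic partner of the receptor, read 638.8 and 689.5 at 0 h, 441.8 and 895.3 after 2 h, and 65.2 and 64.3 after 6 h. Its 6 h arrays agreed within 1.01-fold of each other, and neither overlapped with any earlier array. The means were 664 ± 35.9, 669 ± 321 and 64.8 ± 0.636 (SD, n = 2 each), so the 0 h and 2 h levels do not differ beyond their spread. The 6 h signals were 9.82% and 9.68% of the 0 h mean, a log2 difference of -3.26 ± 0.38 (SE) or a 9.59-fold lower level. The log2 difference between 6 h and 2 h was -3.18 ± 0.38, and that between 2 h and 0 h was -0.08 ± 0.38. The sign at 2 h against 0 h turned with the array left out, with 0.43 without replicate 1 at 2 h and -0.58 without replicate 2 at 2 h.

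AT5G65530, the kinase of the ROP-binding class, read 1054.2 and 1769.6 at 0 h, 1139.3 and 2128.0 after 2 h, and 189.2 and 11.7 after 6 h. Again both 6 h arrays lay below all others, but they differed 16.2-fold from each other. Its means were 1412 ± 506 at 0 h, 1634 ± 699 after 2 h and 100 ± 126 after 6 h (SD, n = 2 each). Those at 0 h and 2 h do not differ beyond their spread. The 6 h signals were 13.4% and 0.829% of the 0 h mean. The log2 difference was -4.59 ± 0.84 (SE) between 6 h and 0 h, -4.78 ± 0.84 between 6 h and 2 h, and 0.19 ± 0.84 between 2 h and 0 h. Replicate 2 at 6 h set much of its size: the 6 h minus 0 h difference was -2.82 without that array and -6.36 without replicate 1 at 6 h. The small difference between 2 h and 0 h was -0.26 without replicate 2 at 2 h and -0.18 without replicate 1 at 0 h.

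The 2 suberin genes lay closer to the filter and differed less between the times. AT2G48130, the lipid transfer protein gene, read 126.6 and 119.0 at 0 h, 62.2 and 136.0 after 2 h, and 38.4 and 59.8 after 6 h. Its 6 h arrays lay below both arrays of each earlier time, with replicate 1 at 2 h close above them. The means were 123 ± 5.37, 99.1 ± 52.2 and 49.1 ± 15.1 (SD, n = 2 each), so their order followed the times, and the 0 h and 2 h levels overlapped. The log2 difference was -1.27 ± 0.54 (SE) between 6 h and 0 h and -0.88 ± 0.54 between 6 h and 2 h, and at 2 h against 0 h it was -0.39 ± 0.54. The 2 h arrays decided the last 2 values: without replicate 1 at 2 h they were -1.41 and 0.14, and without replicate 2 at 2 h they were -0.34 and -0.93.

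AT1G74460, the esterase/lipase gene, read 158.8 and 51.3 at 0 h, 26.5 and 48.0 after 2 h, and 33.2 and 56.4 after 6 h. Only replicate 1 at 0 h stood above the rest, and the 0 h and 6 h groups overlapped. Its mean was 105 ± 76.0 at 0 h, 37.2 ± 15.2 after 2 h and 44.8 ± 16.4 after 6 h (SD, n = 2 each), so the order was 0 h, 6 h, 2 h, and no neighbours in it differ beyond their spread. The log2 difference was -0.99 ± 0.73 (SE) between 6 h and 0 h, and -1.76 without replicate 2 at 0 h. Between 2 h and 0 h it was -1.23 ± 0.73, and between 6 h and 2 h it was 0.25 ± 0.73, the sign of which turned when replicate 1 at 2 h (-0.13) or replicate 2 at 6 h (-0.10) was left out. Without replicate 1 at 0 h the gene did not pass the filter.

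**Figure D1:**
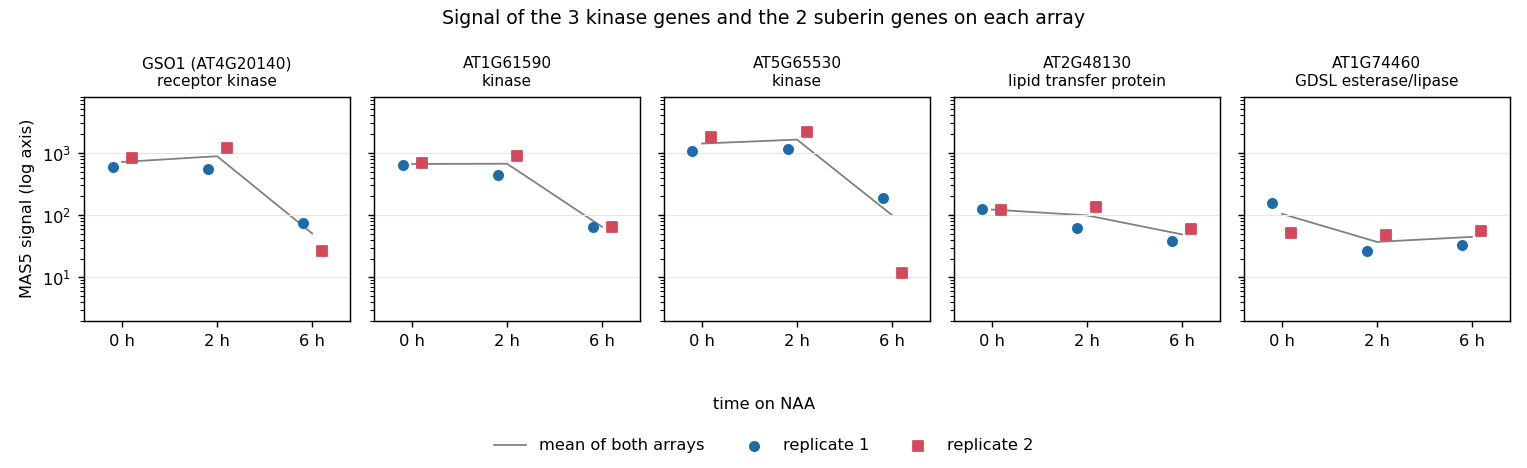
MAS5 signal (log axis) of the 5 genes at 0 h, 2 h and 6 h on NAA, with a point for each array and a line through the mean of both arrays. The kinase genes read 441.8 or more on every 0 h and 2 h array and 189.2 or less at 6 h, while the suberin genes stayed between 26.5 and 158.8 on all 6 arrays.

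A detection call with its p-value per probe set came with the authors' file of 1 array, replicate 1 at 2 h, and describes that array alone. GSO1, AT1G61590 and AT5G65530 were called present there, with detection p-values of 0.000732, 0.001953 and 0.000244. AT2G48130 was called marginal (0.056152) and AT1G74460 absent (0.080566). Of all probe sets other than controls, 54.8% were called present, 1.38% marginal and 43.8% absent. A call of absent did not need a low signal: LBD16, with 1920.4, had the same call and p-value as AT1G74460. Detection calls for the other 5 arrays were not used here.

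Both 6 h arrays lay below both 0 h arrays for 4 of the 5 genes, all but AT1G74460, against a background of 35.4% of tested probe sets. Both also lay below both 2 h arrays for the same 4 genes, against 25.3%. Both 2 h arrays lay below both 0 h arrays for 1 of the 5, AT1G74460, against 32.4%. Since the genes were chosen on these arrays, nothing is read from those counts. Within the brighter arrays the 6 h minus 0 h differences were -4.28 for GSO1, -3.22 for AT1G61590 and -5.99 for AT5G65530. Within the dimmer arrays they were -3.37, -3.31 and -3.19 for the same genes. These differences had to be negative in both sets, because both 6 h arrays lay below both 0 h arrays. For AT2G48130 they were -1.02 and -1.51, and for AT1G74460 -1.42 and -0.56. At 2 h against 0 h the kinase genes differed in sign between the sets: 1.01 and -0.58 for GSO1, 0.48 and -0.64 for AT1G61590, and 1.01 and -0.63 for AT5G65530.

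Within a time point the replicates also differed. At 2 h, replicate 2 read higher than replicate 1 for all 5, by 2.19-fold for GSO1, 2.03-fold for AT1G61590, 1.87-fold for AT5G65530, 2.19-fold for AT2G48130 and 1.81-fold for AT1G74460. Among all tested probe sets replicate 2 was the higher in 51.1%, with a median ratio of 1.01. Replicates have no order, and this was noticed after the values were seen. At 6 h replicate 1 was above replicate 2 for GSO1 (2.9-fold) and AT5G65530 (16.2-fold) and almost level with it for AT1G61590 (1.01-fold). Replicate 1 was below replicate 2 for AT2G48130 and AT1G74460. In all tested probe sets replicate 1 was the higher in 47.7% at 6 h. A set of 232 tested probe sets had a 0 h mean signal above 500 and a 6 h minus 0 h difference below -3. In 58.2% of these replicate 1 was the higher at 6 h, with a median ratio of 1.14.

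The authors' scaling left small shifts in the array as a whole. The median difference of all tested probe sets was -0.15 at 2 h and -0.11 at 6 h against 0 h, and it was 0.12 and 0.01 after each array was centred on its own median. Relative to that median the 6 h minus 0 h differences were -3.72 for GSO1, -3.15 for AT1G61590, -4.48 for AT5G65530, -1.16 for AT2G48130 and -0.88 for AT1G74460. Centring moved all probe sets alike: the 2 h minus 0 h difference of AT1G61590 was -0.08 under the authors' scaling and 0.19 after centring, but 0.07 relative to the median of all tested probe sets under both.

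Other genes of the pathway were taken from lists of 74 further loci: Casparian strip signalling, its membrane and wall proteins, suberin synthesis, suberin transport and assembly, suberin MYB factors, monolignol synthesis and ROP-binding kinases. Only 10 of the 74 had a probe set with a name here, and 7 passed the filter. In limma's fit over all 13647 tested probe sets, all 7 fell at 6 h against 0 h and 0 rose at an adjusted p under 0.05, beside a background of 33.8% called, 17.0% lower and 16.8% higher. All 7 also had an unadjusted p under 0.05, and all 7 were called with each of the 6 arrays left out in turn. Their median log2 difference was -4.83, against -0.11 for all tested probe sets. Against 2 h, 6 of the 7 were lower at 6 h and 0 higher, while 8.72% of all tested probe sets were called, 5.59% lower and 3.13% higher, and all 7 had an unadjusted p under 0.05. At 2 h against 0 h 1 of the 7 was lower and 0 higher, beside 11.4% called, 4.12% lower and 7.26% higher, and 2 had an unadjusted p under 0.05. The lists were drawn up with results of these arrays known, AT5G66390 among them, and 6 of the 7 (all but HCT) read below the filter's signal of 50.9 on at least 1 array at 6 h, so they passed it with the help of their early levels. The counts are therefore no independent evidence of a direction.

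The ligand gene of the receptor pathway had a similar course. AT4G34600, which encodes the peptide CIF2 that GSO1 senses, read 918.0 and 1543.8 at 0 h, 722.2 and 847.4 after 2 h, and 59.7 and 28.9 after 6 h. No 6 h array overlapped with an earlier one. It fell by 4.67 ± 0.40 on the log2 scale at 6 h against 0 h (SE, adjusted p = 1.9e-05, limma), 25.5-fold. Against 2 h the difference was -4.07 ± 0.40 (adjusted p = 0.000182, limma). At 2 h it was not called, with a difference of -0.60 and a 95% interval of -1.49 to 0.28.

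Of 16 listed membrane and wall proteins of the strip, 5 were tested. All 5 were called lower at 6 h against 0 h, beside 17.0% of all tested probe sets. Each of the 5 read below the filter's signal of 50.9 on at least 1 array at 6 h. They thus passed the filter with the help of their early levels, and the count is no independent evidence of a direction. Dirigent proteins guide the coupling of lignin precursors, and their genes AT2G39430 (DIR9) and AT4G13580 (DIR18) fell, with log2 differences of -4.96 ± 0.83 and -4.83 ± 0.68 (SE). AT2G39430 read 1651.3 and 797.3 at 0 h, 1076.3 and 2014.5 after 2 h, and 115.0 and 6.5 after 6 h (adjusted p = 0.000942, limma). AT4G13580 read 1073.3 and 1110.2, 1590.7 and 2982.5, and 95.4 and 9.8 at those times (adjusted p = 0.000338). In both genes the 6 h arrays were apart from all earlier ones, and replicate 2 held the lowest value. Without that array the differences were -3.26 for AT2G39430 and -3.45 for AT4G13580, and without replicate 1 at 6 h they were -6.65 and -6.21.

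The other 3 are class III peroxidase genes, whose enzymes oxidise monolignols in the wall. AT1G44970 (PER9) read 2665.0 and 2424.3 at 0 h, 1294.8 and 3391.8 after 2 h, and 203.1 and 5.0 after 6 h, a difference of -5.80 ± 1.01 (adjusted p = 0.00123, limma). AT5G66390 (PER72) had the widest gap of the 7 between its 6 h arrays, 327.6 and 2.6, against 5196.3 and 3809.6 at 0 h, and read 4261.7 and 4205.2 at 2 h. Its difference of -6.47 ± 1.19 (adjusted p = 0.0017, limma) was -9.42 within the brighter and -3.52 within the dimmer arrays. Without replicate 2 at 6 h the differences were -3.61 for AT1G44970 and -3.74 for AT5G66390, and without replicate 1 at 6 h they were -7.99 and -9.19. The 6 h signals of replicate 2 were no higher than the pseudocount of 5 in both genes, so the size of these differences depends on it, and that of AT5G66390 was -6.97 with a pseudocount 4 times smaller and -5.66 with one 4 times larger. AT4G11290 (PER39) differed from the rest in that it was already lower at 2 h, with 100.6 and 53.5, against 288.4 and 603.7 at 0 h. That difference was -2.43 ± 0.59 (adjusted p = 0.0226, limma). It was not called when replicate 2 at 0 h was left out (adjusted p = 0.134, limma), nor without either array of 2 h (0.0642 and 0.187). At 6 h AT4G11290 read 10.0 and 24.5, a difference from 0 h of -4.33 ± 0.59 (adjusted p = 0.000262). The further step between 6 h and 2 h was not called (-1.90, 95% interval -3.19 to -0.61, adjusted p = 0.0725).

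HCT (AT5G48930), an acyltransferase of monolignol synthesis, was the 1 tested gene of 16 in its list. It read 2564.3 and 3955.9 at 0 h, 1254.2 and 1985.7 after 2 h, and 325.6 and 475.4 after 6 h. The 3 groups did not overlap. HCT fell by 3.00 ± 0.37 at 6 h against 0 h (SE, adjusted p = 0.000131, limma), 8.0-fold, and by 1.99 ± 0.37 against 2 h (adjusted p = 0.00604). The call against 2 h was lost when replicate 2 at 2 h (adjusted p = 0.0776, limma) or replicate 1 at 6 h (adjusted p = 0.0756) was left out. At 2 h against 0 h its difference was -1.01 ± 0.37 and not called (adjusted p = 0.104).

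**Figure D2:**
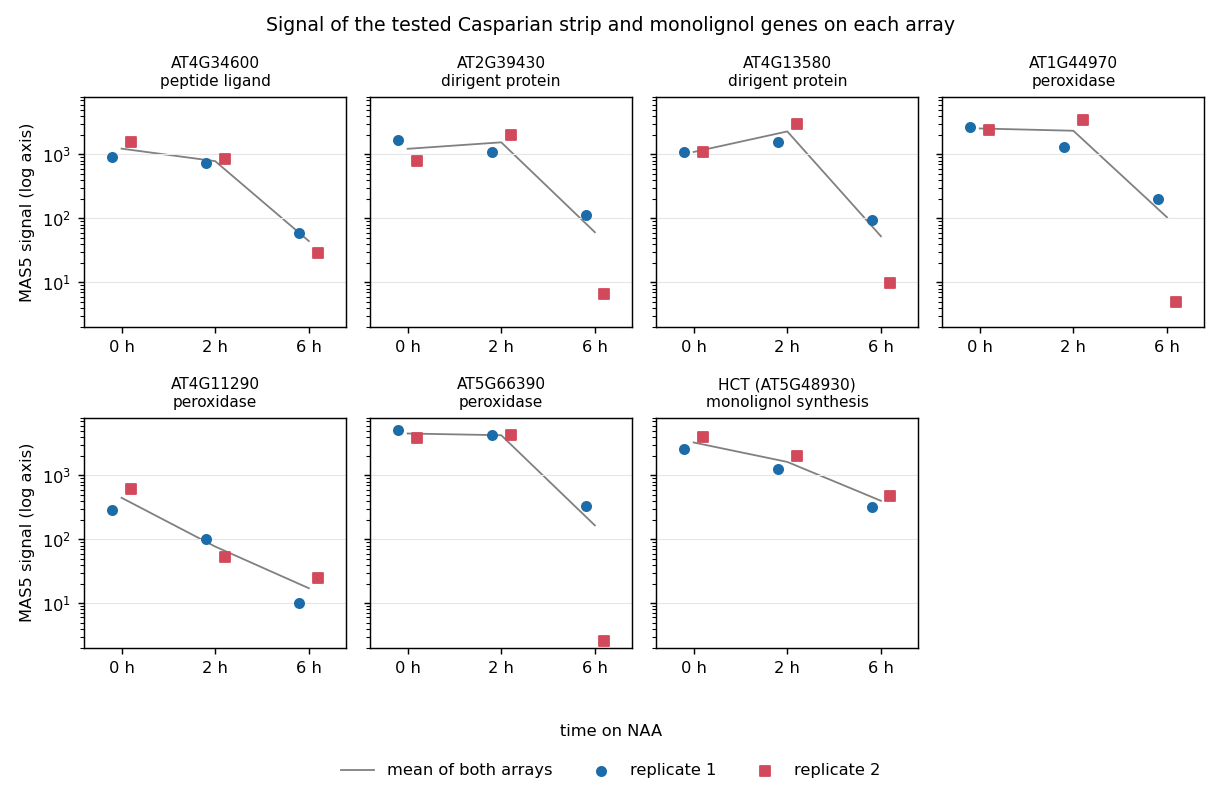
MAS5 signal (log axis) of the 7 tested genes of the pathway lists at 0 h, 2 h and 6 h on NAA, with a point for each array and a line through the mean of both arrays. All 6 h arrays lie below all 0 h and 2 h arrays of the same gene. Both 2 h arrays lie below both 0 h arrays for AT4G34600, AT4G11290 and HCT, of which only the 2 h difference of AT4G11290 was called. Among all tested probe sets, both 6 h arrays lay below both 0 h arrays in 35.4% and below both 2 h arrays in 25.3%. Both 2 h arrays lay below both 0 h arrays in 32.4%. Nothing is read from these counts, because the lists were drawn up with results of these arrays known.

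Of the other suberin genes, 1 of 13 listed for monomer synthesis, 2 of 8 for transport and assembly and 0 of 7 MYB factors had a named probe set, and all 3 were too dim to be tested. FACT (AT5G63560), which encodes an acyltransferase that makes alkyl caffeates, read 6.4 and 34.5 at 0 h, 52.7 and 49.8 after 2 h, and 16.2 and 73.3 after 6 h. AT5G37690, a GDSL-type esterase/lipase gene, read 40.4 and 12.2, 30.8 and 35.4, and 30.3 and 75.6. In both genes the groups at 6 h and 0 h overlapped. A second gene of that family, AT2G23540, was higher on both 6 h arrays than on both 0 h arrays, with 2.7 and 3.8 at 0 h, 5.8 and 48.8 after 2 h, and 43.4 and 95.4 after 6 h. Fitted without the filter its difference at 6 h was 3.08 ± 0.93 (SE, adjusted p = 0.0332, limma), a size that depends on the pseudocount because the 0 h signals were below it. Its detection call on replicate 1 at 2 h was absent, with a detection p-value of 0.633789. Without the filter 10 listed genes entered the fit, of which 7 were lower and 1 higher at 6 h against 0 h. In that fit 19.2% of 22746 probe sets were called, 9.59% lower and 9.60% higher.

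**Figure D3:**
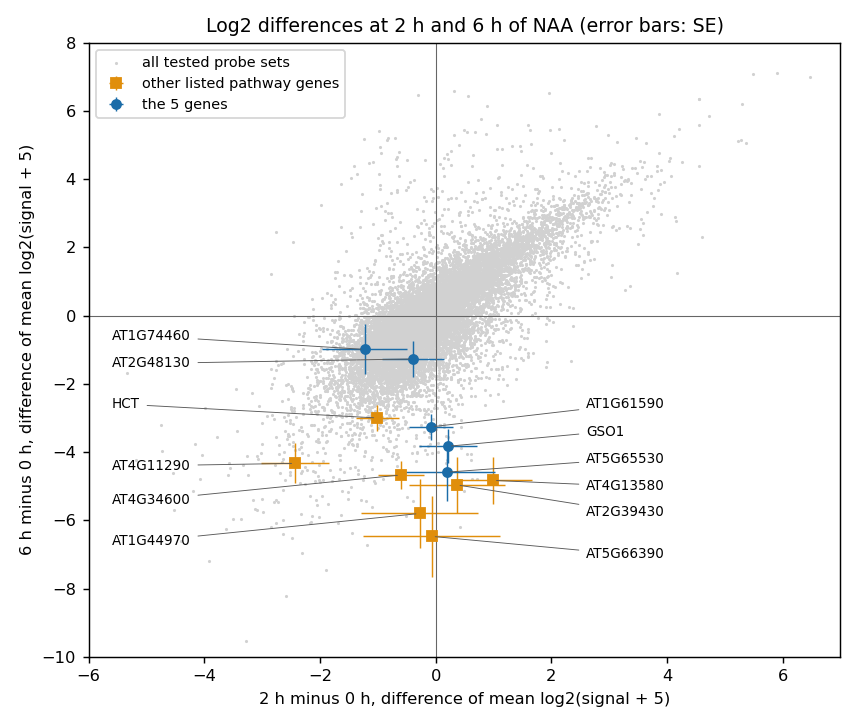
Difference of mean log2(signal + 5) at 2 h (horizontal) and 6 h (vertical), each minus 0 h, for the 13647 tested probe sets (grey), the 5 genes (blue) and the 7 tested genes of the pathway lists (orange), with SE bars. Both axes share the 0 h arrays. GSO1, AT1G61590 and AT5G65530 lie near 0 on the horizontal axis and between -4.59 and -3.26 on the vertical one, AT2G39430 and AT5G66390 lie below them at -4.96 and -6.47, and AT2G48130 and AT1G74460 lie at -1.27 and -0.99.

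A late drop of this size with little change before it was seen for few probe sets. The limits were chosen after the values were seen: a difference below -3 at 6 h against 0 h, and one within 0.5 of 0 at 2 h. Of the 13647 tested probe sets 47 (0.344%) met both, and 24 of these had 1 named locus each. They include the 3 kinase genes and 3 of the 7 pathway genes (AT2G39430, AT1G44970 and AT5G66390). Nothing is read from either count, because the limits, the genes and the lists were chosen with results of these arrays known. Counted from the most negative, the 6 h minus 0 h difference of AT5G65530 stood at place 89, that of GSO1 at 166 and that of AT1G61590 at 268. AT2G48130 stood at 2132 and AT1G74460 at 2987.

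The genes whose profile was most like each of the 5 were found by Pearson's r of log2 values over the 6 arrays, among tested probe sets with 1 named locus. These arrays form 3 groups of 2, and r follows the shape of a profile but not its size. For GSO1 they were AT5G15910 (r = 0.995), AT3G28940 (0.994) and AT4G17215 (0.993). AT4G17215 read 420.2 and 498.6 at 0 h, 510.5 and 962.5 after 2 h, and 47.8 and 6.3 after 6 h, whereas the difference of AT5G15910 was only -1.33 at 6 h. For AT1G61590 they were AT3G22620 (0.992), PUB24 (0.992), which encodes a U-box ubiquitin ligase, and AT3G22240 (0.989). AT3G22620, a gene of the lipid transfer protein superfamily, read 969.7 and 1545.6 at 0 h, 699.9 and 1776.9 after 2 h, and 101.1 and 67.2 after 6 h. For AT5G65530 they were the peroxidase gene AT1G44970 of the pathway lists (0.992), AT5G39080 (0.992) and AT1G23390 (0.991).

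For the suberin genes the most alike genes were others again. AT2G48130 was most like ATAB2 (r = 0.994), AT3G18930 (0.988) and AT5G05090 (0.983), whose 6 h minus 0 h differences ran from -1.41 to -0.63. AT1G74460 was most like AT4G17140 (0.984), AT1G06930 (0.983) and AT2G38710 (0.981), with differences of -0.60 to -0.43 and their highest signal on replicate 1 at 0 h. No gene was in the first 3 of more than 1 of the 5 genes, so the kinase genes shared none with each other either. With only 3 kept for each, this does not show that the profiles differ. The mean of the 5 standardised profiles was most like AT3G05920 (0.998), AT1G75190 (0.998), AT4G27130 (0.994), AT3G01690 (0.993) and PSBW (0.99), a photosystem II subunit gene. AT3G05920 read 5.6 and 4.4 at 6 h, against 203.4 and 140.2 at 0 h, a difference of -4.12.

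Genes next to the 5 in the TAIR10.1 annotation were looked at after the values were seen. The span of AT4G20150 overlaps that of GSO1 by 337 bases, and the sources used here do not give the strand of the probes. AT4G20150 read 1116.8 and 1656.3 at 6 h, against 1702.8 and 3882.1 at 0 h, a difference of -0.92 ± 0.45 that was not called (adjusted p = 0.143, limma). Beside AT5G65530, AT5G65520 (-1.32 ± 0.60, adjusted p = 0.114) and AT5G65540 (0.97 ± 0.62, adjusted p = 0.257) were not called either. AT1G74470, next to AT1G74460, fell by 1.19 ± 0.34 (adjusted p = 0.0202). The other 6 adjacent genes had no named probe set.

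GSO1, AT1G61590 and the genes of the strip's wall proteins are known from the endodermis, while the sorted cells are labelled pericycle. Few markers could speak to the cell types present. Of 11 listed endodermis markers only AT4G28100 had a named probe set. It read 458.2 and 318.0 at 6 h, against 156.2 and 53.9 at 0 h, and rose by 1.99 ± 0.49 (adjusted p = 0.00893, limma). A single gene cannot stand for the cell type. SCR, MYB36 and the CASP genes, which define the endodermis, had no named probe set. Of 2 cortex markers, AT1G09750 read 41.2 and 68.8 at 6 h, against 164.6 and 137.4 at 0 h (-1.41, adjusted p = 0.0692, limma), and AT1G62500 was below the filter at 36.6 or less on every array. The phloem marker AT3G12730, 1 of 6, read 41.3 and 119.9 at 6 h, against 53.8 and 56.0 at 0 h. Both epidermal markers with a probe set, of 6 listed, summed to 73.8 and 156.4 at 6 h, against 119.3 and 87.0 at 0 h. Of 6 pericycle and stele markers LBD16 alone had one, with 1167.2 and 736.8 at 6 h, against 542.7 and 476.3 at 0 h. That difference was not called (0.86, adjusted p = 0.0658, limma). LBD16 was highest at 2 h, with 1920.4 and 2296.3, a difference from 0 h of 2.04 (adjusted p = 0.00298, limma). Because its level moved with the time on NAA, it cannot tell the share of pericycle cells from a change within them. Xylem and root cap markers had none. The part of other cell types in these differences was not tested.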

How the data were processed

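Transcript levels were measured on 6 one-colour Affymetrix arrays. The authors deposited linear MAS5 signal intensities, with the tool named per the submitters' processing notes and its version stated nowhere in the sources used here. With 2% of probe sets trimmed from either end, all arrays had the same mean, so the authors' scaling was kept. The file of replicate 1 at 2 h, as deposited, adds detection p-values and calls, and its 22810 signals equalled those of the series table.

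Signals were analysed as log2(signal + 5), where 5 is the 10th percentile of all signals rounded to a whole number, so differences of dim probe sets are understated. The 64 Affymetrix controls were left out, and the 13647 probe sets with a mean above the 40th percentile were tested. All 6 arrays entered 1 fit with limma 3.58.1 in R 4.3.3 (lmFit, and eBayes with an intensity trend), with 3 residual and 8.26 prior degrees of freedom. P-values were adjusted by the Benjamini-Hochberg method over all tested probe sets, with a threshold of 0.05. No p-value is given for the 5 genes. The fit was tested on simulated data. Arrays have no read depth, so their number limits the precision. Each p-value weighs a difference against the spread between these samples, moderated by that of all tested probe sets.

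In the array's annotation 13513 probe sets have 1 gene symbol, 503 have several and 8794 are unnamed here. Of the 13513, 13436 matched a TAIR10.1 locus. Each locus was represented by its brightest probe set with 1 gene. The 5 genes and all lists were chosen with earlier results of these data known. Named in the text are the 5 genes, every pathway-list gene with a named probe set, and the genes most like them in profile (3 for each, and 5 for their mean). A planned search for protein relatives was not run, since protein sequences were not used here. Alternatives were other pseudocounts, filters and scalings, eBayes without trend or robust, a replicate block, a block for the hybridisation controls, and each array left out. Another background correction was not tried, because probe-level data were not used here.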

Additional observations from a re-analysis of the deposited data

How the results depend on the processing

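All 7 listed pathway genes that passed the filter were lower at 6 h than at 0 h in each alternative in which they were tested. In the main fit 17.0% of all tested probe sets were called lower. The lists were drawn up with results of these arrays known, and all but HCT passed the filter with the help of their early levels. No alternative removes that choice, so this is no independent evidence of a direction. Without the filter 8 of 10 were called, 7 lower and 1 higher, beside 4365 calls among all probe sets (19.2%). At 6 h against 2 h 6 were called, and 4 to 6 with an array left out. The 1 gene called at 2 h against 0 h, AT4G11290, was lost with the filter at the 60th percentile, which removes it (0 called), and a second, HCT, was called with the replicate block (2 called). With an array left out 0 or 1 was called. Over all probe sets 1553 were called at 2 h against 0 h, 976 with eBayes without trend, and 473 to 1595 with an array left out. At 6 h against 0 h the number was 4612, and 3026 to 4489 with an array left out. At 6 h against 2 h it was 1190, and 521 to 1734 with an array left out. Centring on the array medians made 82.4% of the calls at 2 h higher, against 63.8% with the authors' scaling.

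The 6 h minus 0 h difference ranged over the alternatives, apart from the values within the brighter and dimmer arrays, from -4.51 to -3.14 for GSO1, from -3.33 to -3.01 for AT1G61590, from -6.36 to -2.82 for AT5G65530, from -1.56 to -0.98 for AT2G48130 and from -1.76 to -0.65 for AT1G74460. AT2G48130 and AT1G74460 did not pass the filter at the 60th percentile, nor AT1G74460 without replicate 1 at 0 h. Differences between the replicates of a time point correlated at 0.06 (2 h with 0 h), 0.11 (6 h with 0 h) and 0.15 (6 h with 2 h) across probe sets, and the labels do not say that a number marks a shared batch. The replicate block gave 2038 calls at 2 h and 5106 at 6 h against 0 h, and 1662 at 6 h against 2 h. Leaving out replicate 2 at 2 h ended the call of AT1G44970 at 6 h against 2 h (adjusted p = 0.0504, limma).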
